A study of Mus musculus with 21 samples.

Results

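Expression of 8 genes of cholesterol synthesis was followed across 3 lincRNA knockout mouse strains. The genes were chosen by name: Hmgcs1, Idi1, Fdps, Sqle, Lss, Cyp51 and Dhcr7, which encode enzymes of the pathway, and Insig1, which encodes a regulator of it. They are 8 of the 42760 entries in the tables of the Peril and Fendrr strains and of the 40770 entries in the table of the linc-Brn1b strain. In each strain the lincRNA gene had been replaced with a lacZ reporter cassette that also carried a loxP-flanked neomycin resistance gene. The alleles were made in hybrid 129S6SvEv and C57BL/6N embryonic stem cells, and the mice were backcrossed once to C57BL/6J. The labels give the Peril strain as linc-Sox2 and the Fendrr strain as linc-Foxf1a. RNA came from brain of Peril mice at E18.5 and lung of Fendrr mice at E14.5. In the linc-Brn1b strain it came from the telencephalon of embryos at both E13.5 and E15.5, and from the whole brain of pups at P7. Each tissue and age was sampled from wild-type and homozygous knockout mice. The 10 groups hold 21 libraries, 2 in each group except 3, by the labels, in the linc-Brn1b knockout at E15.5. Each table gives 1 FPKM value per group (a read level divided by transcript length and by the mapped fragments of the library), pooled over its libraries. The spread between animals and the depth are therefore unknown, and no difference below carries an error or a test.

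Cells build cholesterol from acetyl-CoA through mevalonate, isoprenoid diphosphates, squalene and a series of sterols. The blood-brain barrier keeps circulating lipoproteins out of the brain, which makes its own cholesterol, and myelin is the membrane richest in it. SREBP2, encoded by Srebf2, is the transcription factor that activates most genes of the pathway. SCAP carries SREBP2 out of the endoplasmic reticulum when sterols are scarce, and INSIG1 holds SCAP back when sterols are plentiful. Insig1 is itself a target of SREBP, so its RNA is commonly read together with that of the enzymes.

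SREBP2 binds sterol regulatory elements, often beside CCAAT boxes bound by NF-Y. RefSeq start-site windows of 300 bases (GRCm38.p6) were at hand for 6 of the 8 genes, in 8 windows, since Dhcr7 has 3. Sqle and Fdps had no window. The motif TCACNCCAC, a core of the sterol regulatory element, was searched on both strands and lay in 1 of the 8 windows, that of Hmgcs1, against 1.24% of all 32851 windows. CCAAT, on either strand, lay in 6 of the 8 windows and in at least 1 window of each of the 6 genes, against 37.4% of all windows and 41.1% of the 27025 genes with a window. The 2 motifs did not overlap in the Hmgcs1 window, and a match is a description of the letters only. The Hmgcs1 window (chr13:119690101-119690400, plus strand) is shown because it holds the first motif, which is in capitals. The windows of Idi1 (chr13:8885356-8885655, plus strand) and Cyp51 (chr5:4104648-4104947, minus strand) are shown as examples of the second, with CCAAT or its complement ATTGG in capitals, and these 2 were chosen after the matches were seen. All are written 5′ to 3′ along the gene.
Hmgcs1: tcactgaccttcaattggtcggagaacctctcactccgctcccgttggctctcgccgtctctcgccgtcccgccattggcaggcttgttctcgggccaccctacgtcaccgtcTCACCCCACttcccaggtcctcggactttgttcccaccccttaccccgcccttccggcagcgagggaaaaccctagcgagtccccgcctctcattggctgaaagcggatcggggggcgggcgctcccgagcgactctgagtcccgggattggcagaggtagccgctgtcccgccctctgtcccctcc
Idi1: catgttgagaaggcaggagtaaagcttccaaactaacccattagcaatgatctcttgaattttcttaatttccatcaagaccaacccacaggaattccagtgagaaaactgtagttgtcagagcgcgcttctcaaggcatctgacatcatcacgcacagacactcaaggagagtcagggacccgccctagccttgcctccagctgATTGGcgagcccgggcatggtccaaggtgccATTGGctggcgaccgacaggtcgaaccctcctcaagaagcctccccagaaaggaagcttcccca
Cyp51: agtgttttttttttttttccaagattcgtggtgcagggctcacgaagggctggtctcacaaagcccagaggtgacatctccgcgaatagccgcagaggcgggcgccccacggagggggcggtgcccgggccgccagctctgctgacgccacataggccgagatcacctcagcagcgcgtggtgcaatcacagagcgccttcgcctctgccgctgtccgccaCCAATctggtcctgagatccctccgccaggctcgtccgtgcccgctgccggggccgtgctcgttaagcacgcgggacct

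Hmgcs1, the enzyme that makes HMG-CoA, had almost no signal in these tables. Its entry lies on an unplaced contig assigned to chromosome 13 (mm9, chr13_random:114710-132325). It stood at 0.00929 FPKM in Peril wild type, at 0 in the Peril libraries labelled knockout, and at 0 in both Fendrr lung groups. In the linc-Brn1b strain it was at 0 in both genotypes at E13.5, at 0.317 in wild type and 0.131 in knockout at E15.5, and at 0.117 and 0.668 at P7. All 10 values were below the 1 FPKM that a gene needed in at least 1 of both groups to be compared. The start-site window printed above had no exact match on a placed chromosome of mm9 and 2 on unplaced contigs, whereas the windows of the other 5 genes each had 1 exact match, on a placed chromosome. Every one of the 17517 windows of 100 bases across the Hmgcs1 entry was also present in the other contig, so reads from this gene had more than 1 place to align. Of the entries on unplaced contigs, 15.4% reached 1 FPKM in a Peril group, against 34.5% of the entries elsewhere. The part of these duplicated contigs in the Hmgcs1 values was not tested. The comparisons below therefore rest on 7 genes, and Hmgcs1 is given as listed.

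The other 7 genes were expressed at 9.23 FPKM or more in every group. Fdps, farnesyl diphosphate synthase, was the highest of the 7 in all 10 groups, from 53.4 FPKM in Fendrr wild-type lung to 172 in Peril wild-type brain. Sqle, squalene epoxidase, came next in all 8 brain groups, at 61.8 to 83.0 FPKM, and stood at 32.3 and 32.7 in lung. Lss, lanosterol synthase, was the lowest in 9 of the 10 groups, and in the linc-Brn1b knockout at E13.5 Dhcr7, the reductase that makes cholesterol itself, was lower (17.7 against 18.6 FPKM). Idi1, Cyp51 and Insig1 exchanged places between groups, and Idi1 came above Sqle in lung. With 1 value per group it cannot be said whether neighbours in this order differ beyond their spread. FPKM is a level per length of transcript, which allows genes to be set side by side within a group, except that the linc-Brn1b knockout at E13.5 differed from wild type by amounts that went with transcript length, so that the order of Dhcr7 and Lss there is uncertain.

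**Figure D1:**
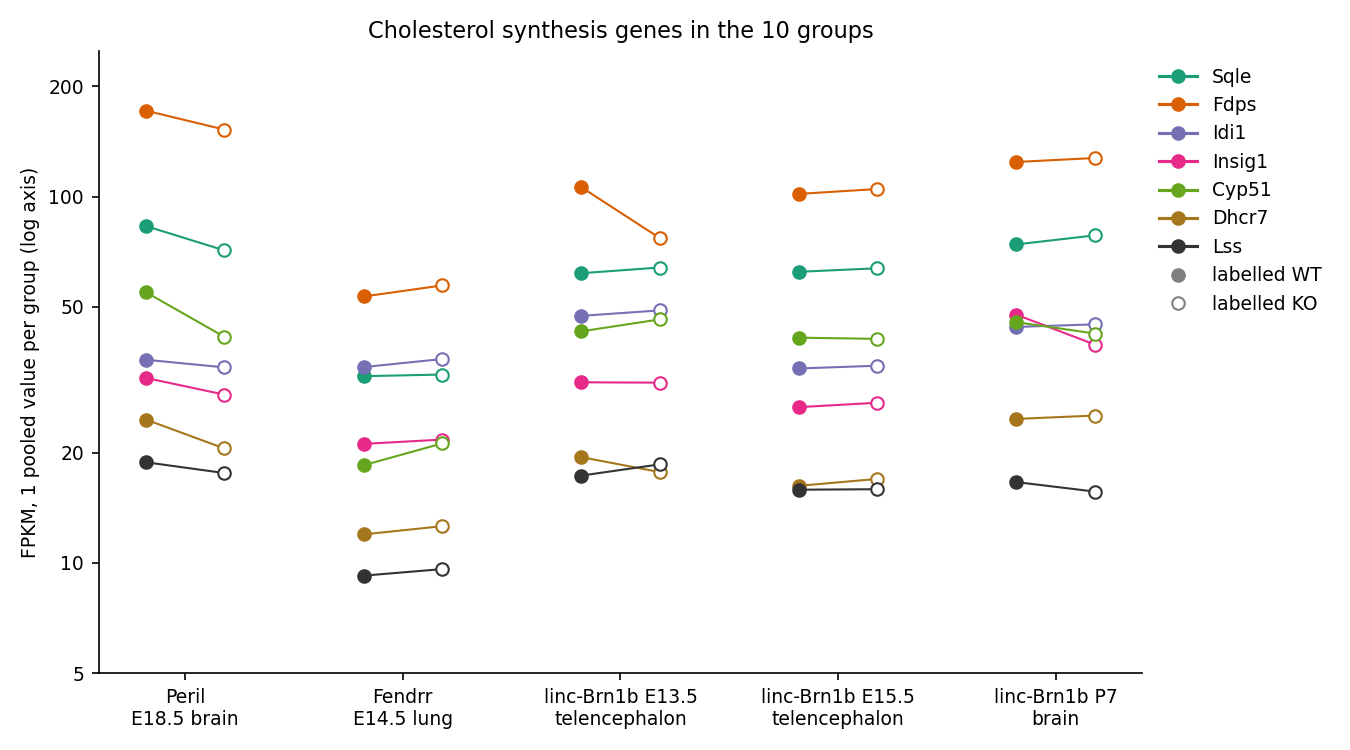
FPKM (log axis) of the 7 cholesterol synthesis genes that reached 1 FPKM, in the 5 pairs of groups, with filled points for wild type and open points for libraries labelled knockout; each point is 1 pooled value, with no error. Fdps is on top in every group, and the lung values lie below the brain values for all but Idi1.

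Levels in lung were lower than in brain for 6 of the 7 genes. In wild-type lung, Fdps (53.4 FPKM), Sqle (32.3), Insig1 (21.1), Cyp51 (18.47), Dhcr7 (12.0) and Lss (9.23) each lay below the lowest of the 4 wild-type brain or telencephalon groups, which stood at 102, 61.8, 26.6, 41.2, 16.2 and 15.8 FPKM, in the same order. Idi1, the isomerase that supplies dimethylallyl diphosphate, did not, at 34.2 FPKM in lung and 33.9 to 47.2 in brain. The lung table was normalized separately from the brain tables, and tissue, strain and table cannot be told apart here.

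Several properties of the libraries bear on all comparisons. The linc-Brn1b entry stood at 0 in every knockout group of its strain, and in wild type its level was 1.60 FPKM in the E13.5 group, 2.50 in the E15.5 group and 0.799 in the P7 group. The entry at the Fendrr locus, linc-Cox4nb-4, stood at 38.4 FPKM in wild type and 0.0450 in knockout lung. The entry that overlaps the Peril locus, linc-Atp11b-4, stood at 0.0109 FPKM in wild type and at 4.65 in the libraries labelled knockout, against the label, although it also covers sequence outside the deletion. By RT-PCR on E18.5 brain, the paper reports that Peril was deleted in its knockouts. Uty, Kdm5d, Ddx3y and Eif2s3y lie on the Y chromosome, and their summed FPKM was between 21.0 and 49.2 in Fendrr wild type, linc-Brn1b wild type at E13.5, the Peril libraries labelled knockout and linc-Brn1b knockout at E15.5 and P7, and at most 0.0357 in the other 5 groups. Each of the 5 genotype comparisons thus set a group with Y-linked RNA against a group with almost none, so that sex and genotype cannot be told apart in any of them. The tissue labels were met by their markers: the 5 telencephalon markers summed to between 71.4 and 404 FPKM in the 8 brain groups and to 0.826 or less in lung, the 5 neuron markers to between 990.3 and 1762 FPKM in brain and to 6.20 or less in lung, and Sftpc stood at 819 and 871 FPKM in lung and at most 0.247 elsewhere.

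The first question was whether loss of a lincRNA went with a difference in these genes. Differences are given on the scale of log2(FPKM + 1), knockout minus wild type, and a difference of 1.5-fold or more on this scale was counted. None of the 7 genes passed 1.5-fold in any of the 5 genotype comparisons. Among all genes compared, 1.98% passed it in Peril brain, 2.49% in Fendrr lung, and in the linc-Brn1b strain 7.23% passed it at E13.5, 0.564% did so in the E15.5 telencephalon and 4.58% in P7 brain, so a count of 0 in 7 lies near the background. In bulk tissue, fewer cells that express a gene and less RNA per cell cannot be told apart.

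**Figure D2:**
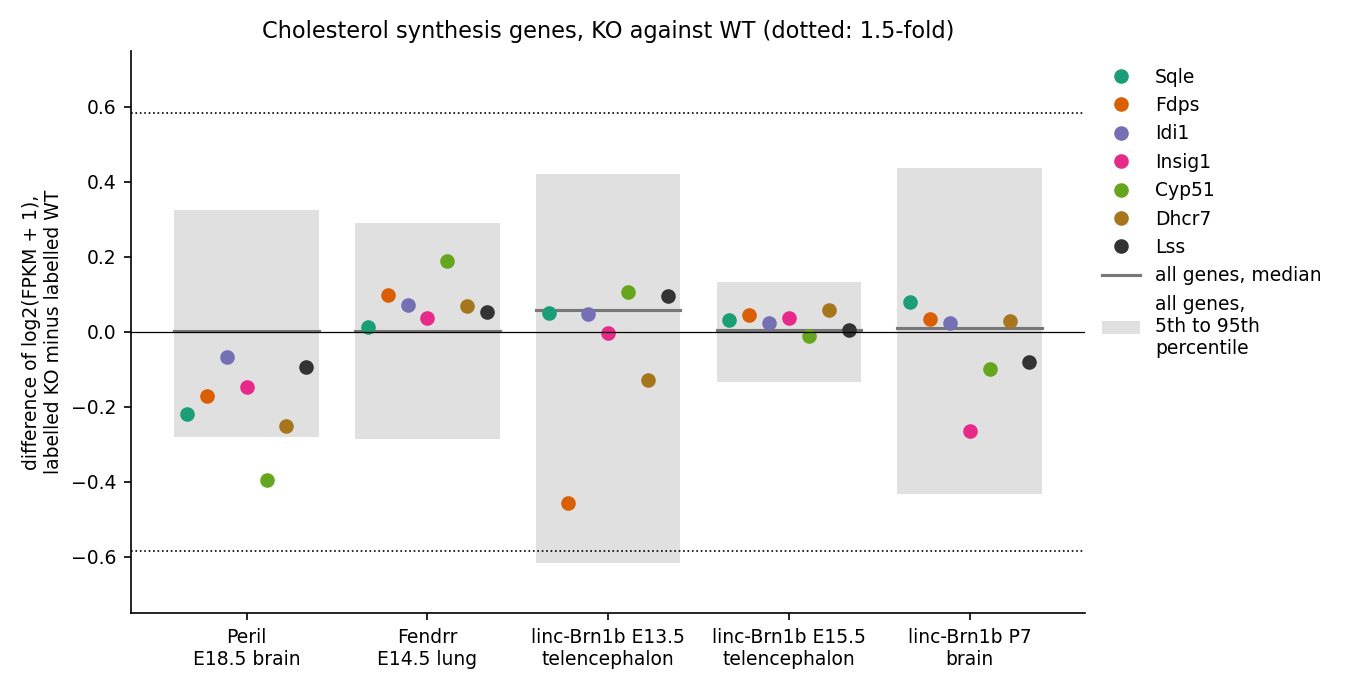
Difference of log2(FPKM + 1), labelled knockout minus wild type, of the 7 genes in the 5 comparisons, with grey bars from the 5th to the 95th percentile of all genes compared, a grey line at their median and dotted lines at 1.5-fold. All points lie within the dotted lines, the 7 points of the Peril strain lie below 0, and only Cyp51 in that strain lies outside the grey bar.

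In Peril E18.5 brain all 7 genes were lower in the libraries labelled knockout. Cyp51, lanosterol demethylase, stood at 54.8 FPKM in wild type and 41.4 in the libraries labelled knockout, a difference of -0.40. Its value lay at the 2.32 percentile of all genes compared, and it was the only 1 of the 7 below the 5th percentile. Dhcr7 stood at 24.6 and 20.5 FPKM (-0.25). Sqle stood at 83.0 and 71.3 FPKM (-0.22), and Fdps at 172 and 152 FPKM (-0.17). The smallest differences were those of Insig1 (32.0 and 28.8 FPKM, -0.15), Lss (18.8 and 17.6 FPKM, -0.09) and Idi1 (35.8 and 34.2 FPKM, -0.07). The median difference was -0.17, against 0.00345 over all 14729 genes compared, of which 49.2% were lower at any size. The summed level of the 8 genes was 421 FPKM in wild type and 366 in the libraries labelled knockout.

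Most of the remaining enzymes of the pathway had values on the same side in this strain. Of 13 further cholesterol synthesis enzymes, 11 were lower, with a median of -0.22, and none passed 1.5-fold. Ebp, a sterol isomerase encoded on the X chromosome, stood at 6.94 and 4.79 FPKM (-0.45), Sc5d, the sterol desaturase before Dhcr7, at 26.9 and 20.5 FPKM (-0.38), and Msmo1, the methyl sterol oxidase, at 53.7 and 43.5 FPKM (-0.30). Tm7sf2 and Hsd17b7 were the 2 that were not lower (0.02 and 0.01). The regulators did not share this side as a list: of 9 genes of the SREBP pathway 4 were lower, with a median of 0.000825, and Srebf2 stood at 65.4 and 64.5 FPKM. Of 9 fatty acid synthesis genes, which SREBP1 activates, 6 were lower, with a median of -0.09.

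Marker lists of other cell populations differed in both directions in the Peril comparison. All 5 endothelial markers were lower (summed level 77.5 and 65.6 FPKM, median difference -0.27), as were 4 of the 5 markers of dividing cells (53.0 and 43.5 FPKM, median -0.30) and the 3 of 4 choroid plexus markers that were compared (825 and 567 FPKM, median -0.34). Of the 5 neuron markers 4 were higher (1657 and 1762 FPKM, median 0.155), as were 7 of the 8 myelin genes compared (60.3 and 63.9 FPKM over the list of 12, median 0.10). Of the 6 cerebellar and hindbrain markers 4 were lower (51.7 and 44.2 FPKM, median -0.179), with Pcp2, a Purkinje cell gene, at 6.34 and 2.39 FPKM (-1.11), and of the 6 astrocyte markers 4 were higher (212 and 229 FPKM, median 0.142). The oligodendrocyte lineage list had 4 of 6 markers lower (74.4 and 68.35 FPKM, median -0.0673). No defining marker among these lists except Opalin was at 0. Their part in the lower values of the cholesterol synthesis genes was not tested.

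In Fendrr E14.5 lung all 7 genes were slightly higher in the knockout. Cyp51 had the largest difference, at 18.47 FPKM in wild type and 21.2 in knockout (0.19, the 90 percentile of all genes compared). Fdps stood at 53.4 and 57.2 FPKM (0.10), and Idi1 at 34.2 and 36.0 FPKM (0.07). Dhcr7 stood at 12.0 and 12.6 FPKM (0.07), Lss at 9.23 and 9.62 FPKM (0.05), Insig1 at 21.1 and 21.7 FPKM (0.04) and Sqle at 32.3 and 32.7 FPKM (0.0145, or -0.012 after each group was rescaled to the same sum). The median was 0.07, against 0.00335 over all 14265 genes compared, of which 51.2% were higher at any size. None of the 13 other enzymes passed 1.5-fold, and 8 were higher, with a median of 0.04. In these lungs all 5 endothelial markers were lower (summed level 295 and 237 FPKM, median -0.34) and all 5 cardiac muscle markers were higher by 1.5-fold or more (147 and 482 FPKM, median 1.61). Their part in the small differences of the cholesterol synthesis genes was not tested, nor was that of transcript length, set out below.

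In the linc-Brn1b strain at E13.5, Fdps stood apart from the rest. It was at 106 FPKM in wild-type telencephalon and 77.1 in knockout, 1.38-fold lower, with a difference of -0.455 on the log2(FPKM + 1) scale. Dhcr7 was at 19.4 and 17.7 FPKM (-0.13), and Insig1 was at 31.1 and 31.04 FPKM (-0.00311). The other 4 were higher: Cyp51 at 42.9 and 46.2 FPKM (0.11), Lss at 17.3 and 18.6 FPKM (0.10), Sqle at 61.8 and 64.0 FPKM (0.05) and Idi1 at 47.2 and 48.9 FPKM (0.05). With 4 of 7 higher, against 59% of all 13822 genes compared, and a median of 0.05, against 0.06 over all genes, the members as a list stood near the background (after rescaling, 0.234 against 0.239). The signs of the small differences depend on the scaling: after each group was rescaled to the same sum 6 of 7 were higher (Insig1 at 0.181, Dhcr7 at 0.0501), and after centring on all genes 2 were higher (Sqle at -0.00712, Idi1 at -0.00993), with Fdps lower in both.

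Differences at E13.5 went with transcript length, and Fdps has the shortest transcript of the 7. Over all genes with a GENCODE transcript, the median difference was -0.62 for the 588 genes whose longest transcript had up to 1000 bases, -0.26 for the 955 genes from 1001 to 1500 bases and -0.12 for the 1189 from 1501 to 2000 bases, and 0.09 and 0.16 for genes from 3001 to 5000 bases and over 5000 bases. The longest Fdps transcript has 1233 bases, and the Fdps difference was 0.19 below the median of its length class, at the 26.2 percentile of that class. The others have 2647 (Insig1), 2815 (Dhcr7), 2866 (Idi1), 3931 (Cyp51), 4467 (Sqle) and 6992 bases (Lss), and lay between 0.12 below and 0.05 above the median of their classes. At E15.5 the class medians ran only from 0.04 for the shortest to -0.01 for the longest transcripts. There Fdps was at 102 FPKM in wild type and 105 in knockout. The same medians, from shortest to longest, ran from 0.126 to -0.0253 in Fendrr lung. They ran from -0.0564 to 0.0449 in Peril brain and from -0.0784 to 0.0696 at P7. Against their class medians, the 7 genes ran from 0.0174 (Sqle) to 0.191 (Cyp51) in lung. In Peril brain they ran from -0.396 (Cyp51) to -0.0508 (Idi1). The part of transcript length in these values, including that of Fdps, was not tested.

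**Figure D3:**
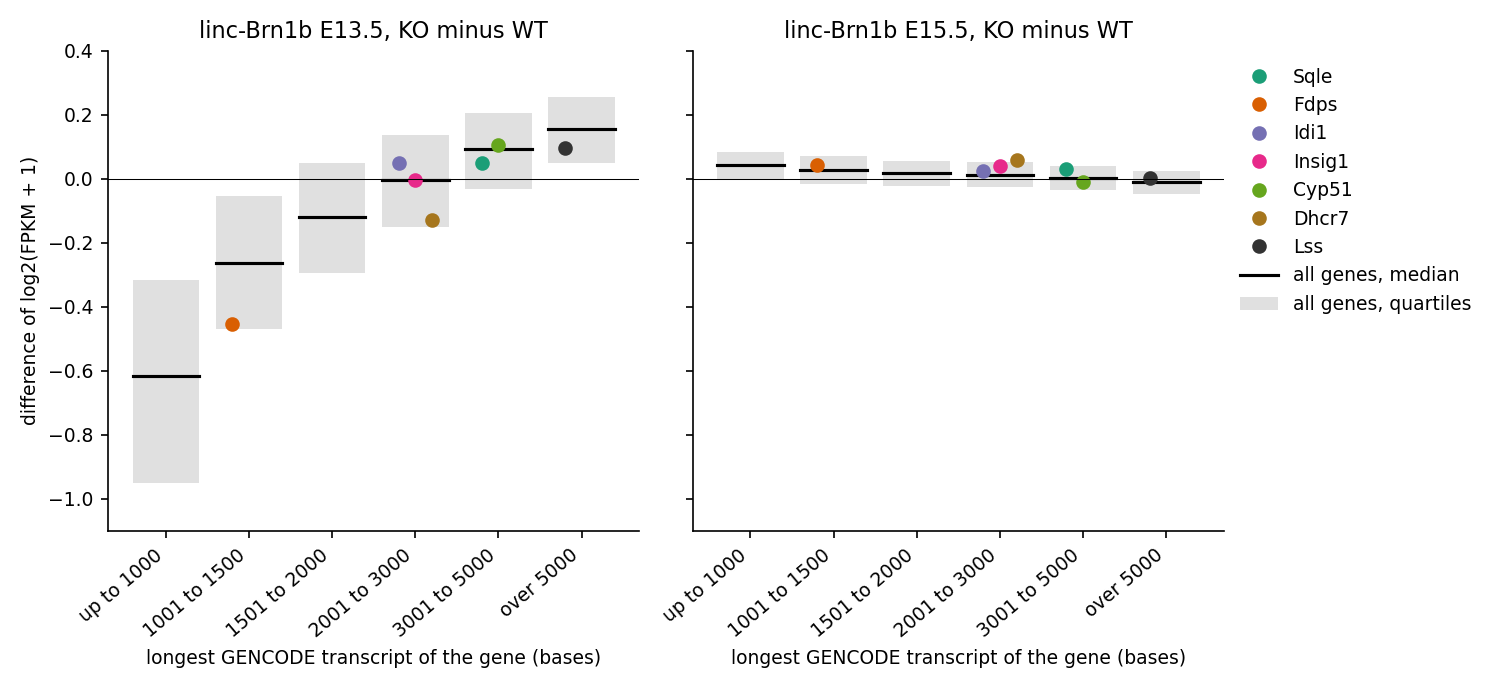
Difference of log2(FPKM + 1), knockout minus wild type, by the longest GENCODE transcript of a gene in bases, at E13.5 (left) and E15.5 (right), with grey bars for the quartiles and black lines for the medians of all genes with a GENCODE length and coloured points for the 7 genes. At E13.5 the class medians climb from -0.62 to 0.16 and Fdps lies in the class from 1001 to 1500 bases, while at E15.5 medians and points all lie near 0.

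Other enzymes at E13.5 lay on both sides. Of the 13, 10 were lower, with a median of -0.14, whereas 59% of all genes compared were higher, with a median of 0.058. Hsd17b7, a sterol ketone reductase, passed 1.5-fold upwards at 4.84 and 8.40 FPKM (0.69), and Ebp passed it downwards at 5.41 and 2.89 FPKM (-0.72). All 5 endothelial markers were lower in the knockout (summed level 58.3 and 38.8 FPKM, median -0.53). The 13 enzymes were not set against the medians of their length classes. The part of transcript length or of the endothelial markers in these values was not tested.

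At E15.5 the genes of both genotypes were close to each other. Sqle stood at 62.3 FPKM in wild type and 63.7 in knockout, Idi1 at 33.9 and 34.5 FPKM, and Insig1 at 26.6 and 27.4 FPKM. Cyp51 stood at 41.2 and 40.9 FPKM, Dhcr7 at 16.2 and 16.9 FPKM, and Lss at 15.8 and 15.9 FPKM. Differences of the 7 genes ran from -0.01 (Cyp51) to 0.06 (Dhcr7), with a median of 0.03. They were higher in 6 of 7 genes, against 53.4% of all 13657 genes compared. Lss is among the 6 only before centring on all genes (0.004, and -0.00128 after it). Choroid plexus markers were nearly absent from this knockout group, with Ttr at 231 FPKM in wild type and 1.39 in knockout, and the 7 cholesterol synthesis genes differed by no more than 4.42% between the same groups.

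At P7, when myelin genes come on, the enzymes stood at like levels in both genotypes. Sqle was at 74.0 FPKM in wild type and 78.3 in knockout brain (0.08), Fdps at 124 and 127 FPKM (0.04), Dhcr7 at 24.7 and 25.2 FPKM (0.03) and Idi1 at 44.1 and 44.8 FPKM (0.02). Lss was at 16.6 and 15.7 FPKM (-0.08) and Cyp51 at 45.4 and 42.3 FPKM (-0.10). Insig1 had the largest difference, at 47.6 FPKM in wild type and 39.4 in knockout, 1.21-fold lower (-0.26, the 12.8 percentile of all genes compared). The median was 0.02, with 4 of 7 higher, against 52% of all 14521 genes compared.

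Myelin genes of the same P7 brains differed more. All 11 myelin genes compared were lower in the knockout, 9 of them by 1.5-fold or more, with a median of -0.70. Mbp, myelin basic protein, stood at 292 and 161 FPKM (-0.85) and Mobp at 37.7 and 19.9 FPKM (-0.89). Summed over the list, myelin genes were 41.9% lower, the 8 cholesterol synthesis genes 0.796% lower and the 13 other enzymes 3.78% higher. Of those 13, none passed 1.5-fold and 9 were higher, with Msmo1 the highest at 49.0 and 60.5 FPKM (0.30). Among the regulators, Insig2, a paralog of Insig1, was at 9.32 FPKM in wild type and 13.8 in knockout (0.52), opposite in sign to Insig1, and Srebf2 was at 54.6 and 63.1 FPKM (0.205). Other lists moved too: all 5 markers of dividing cells were lower by 1.5-fold or more (summed level 37.8 and 17.6 FPKM), the 4 cerebellar and hindbrain markers compared were lower (57.1 and 27.7 FPKM over the list of 6), with Hoxb2 at 0 in knockout, and 4 of 5 telencephalon markers were higher (71.4 and 78.4 FPKM). Of the 4 choroid plexus markers 3 were lower (452 and 308 FPKM, median -0.495), and of the 6 oligodendrocyte lineage markers 4 were higher (115 and 129 FPKM, median 0.135). Of the 6 astrocyte markers 3 were higher and 3 lower (518 and 519.6 FPKM, median -0.198). Past 1.5-fold were Aldh1l1, at 39.3 and 19.4 FPKM (-0.981), and Slc1a2, at 67.7 and 111 FPKM (0.705). The part of these lists in the P7 values, including the Insig1 difference, was not tested.

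The second question was how these genes run in development towards myelination, over the 3 ages of the linc-Brn1b strain. Between E13.5 and E15.5 telencephalon, 6 of the 7 genes were lower in wild type, against 48.5% of all 13973 genes compared. Idi1 had the largest difference, from 47.2 to 33.9 FPKM in wild type (-0.47) and from 48.9 to 34.5 in knockout (-0.49). Insig1 went from 31.1 to 26.6 FPKM in wild type (-0.22) and from 31.04 to 27.4 in knockout (-0.18), and Dhcr7 from 19.4 to 16.2 FPKM (-0.25) and from 17.7 to 16.9 (-0.06). Lss differed by -0.12 and -0.21, Cyp51 by -0.06 and -0.17 and Sqle by 0.01 and -0.00689 (0.0248 after centring on all genes), in wild type and knockout. Fdps differed by -0.06 in wild type and 0.44 in knockout. The latter comparison contains the E13.5 knockout group with its relation to length, which showed here as medians of 0.71 for the shortest and -0.185 for the longest class.

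No gene passed 1.5-fold between E13.5 and E15.5 in either genotype. Of all genes, 8.72% passed it upwards and 8.27% downwards in wild type, and 10.4% upwards and 7.84% downwards in knockout. The median of the 7 was -0.12 in wild type and -0.17 in knockout, where 6 of 7 were lower against 53.3% of all 13977 genes compared. The knockout median was -0.354 after rescaling, when Idi1 passed 1.5-fold (-0.675), and -0.0515 after centring within transcript length classes. In wild type, Y-linked RNA was present at E13.5 and almost absent at E15.5, and in knockout the reverse held, so sex and age cannot be told apart in this step. Markers of dividing cells were lower in all 5 cases in both genotypes (medians -1.05 and -0.63), and their part was not tested.

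From E15.5 telencephalon to P7 whole brain the genes were higher, by little compared with myelin genes. In wild type all 7 were higher, against 46.3% of all 14909 genes compared, with a median of 0.29. Insig1 went from 26.6 to 47.6 FPKM, 1.79-fold higher (0.815), and was the only member past 1.5-fold, against 24.7% of all genes past it upwards and 26.8% downwards. Dhcr7, from 16.2 to 24.7 FPKM (0.58), lay just under that size on the log2(FPKM + 1) scale and over it as a plain ratio of 1.52. After rescaling the median of the 7 was 0.396 and both Insig1 and Dhcr7 were past 1.5-fold. Idi1 went from 33.9 to 44.1 FPKM (0.37), Fdps from 102 to 124 (0.29), Sqle from 62.3 to 74.0 (0.245), Cyp51 from 41.2 to 45.4 (0.14) and Lss from 15.8 to 16.6 (0.06).

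The knockout followed a like course. Here 6 of 7 were higher, against 46.5% of all 14853 genes compared, with a median of 0.29. None passed 1.5-fold, against 25.6% of all genes upwards and 26.9% downwards, but Dhcr7 and Insig1 did so after each group was rescaled to the same sum (0.705 and 0.664, with a median of 0.441 over the 7) and after centring on all genes (0.63 and 0.594). Dhcr7 went from 16.9 to 25.2 FPKM (0.55), Insig1 from 27.4 to 39.4 (0.51), Idi1 from 34.5 to 44.8 (0.37), Sqle from 63.7 to 78.3 (0.29), Fdps from 105 to 127 (0.28), Cyp51 from 40.9 to 42.3 (0.05) and Lss from 15.9 to 15.7 (-0.02, which turned to 0.12 after rescaling and 0.0619 after centring on all genes). The order of these 7 differences was the same as in wild type except that Dhcr7 stood above Insig1 and Sqle above Fdps. Y-linked RNA was at or near 0 at both ages in wild type and present at both in knockout. Age and tissue cannot be told apart in this step, since the later samples are whole brain. Telencephalon markers were lower by 1.5-fold or more in all 5 cases in both genotypes, with medians of -2.06 and -2.15. Astrocyte markers were higher by 1.5-fold or more in all 6 cases in both genotypes (summed level 106 to 518 FPKM in wild type and 114 to 519.6 in knockout), as were the 6 markers of the oligodendrocyte lineage (19.1 to 115 and 20.45 to 129 FPKM). The choroid plexus list went from 238 to 452 FPKM in wild type and from 1.99 to 308 in knockout. The part of these lists in the higher values of the cholesterol synthesis genes was not tested. The genotype and age comparisons use the same 6 groups, and both age steps share the E15.5 groups.

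**Figure D4:**
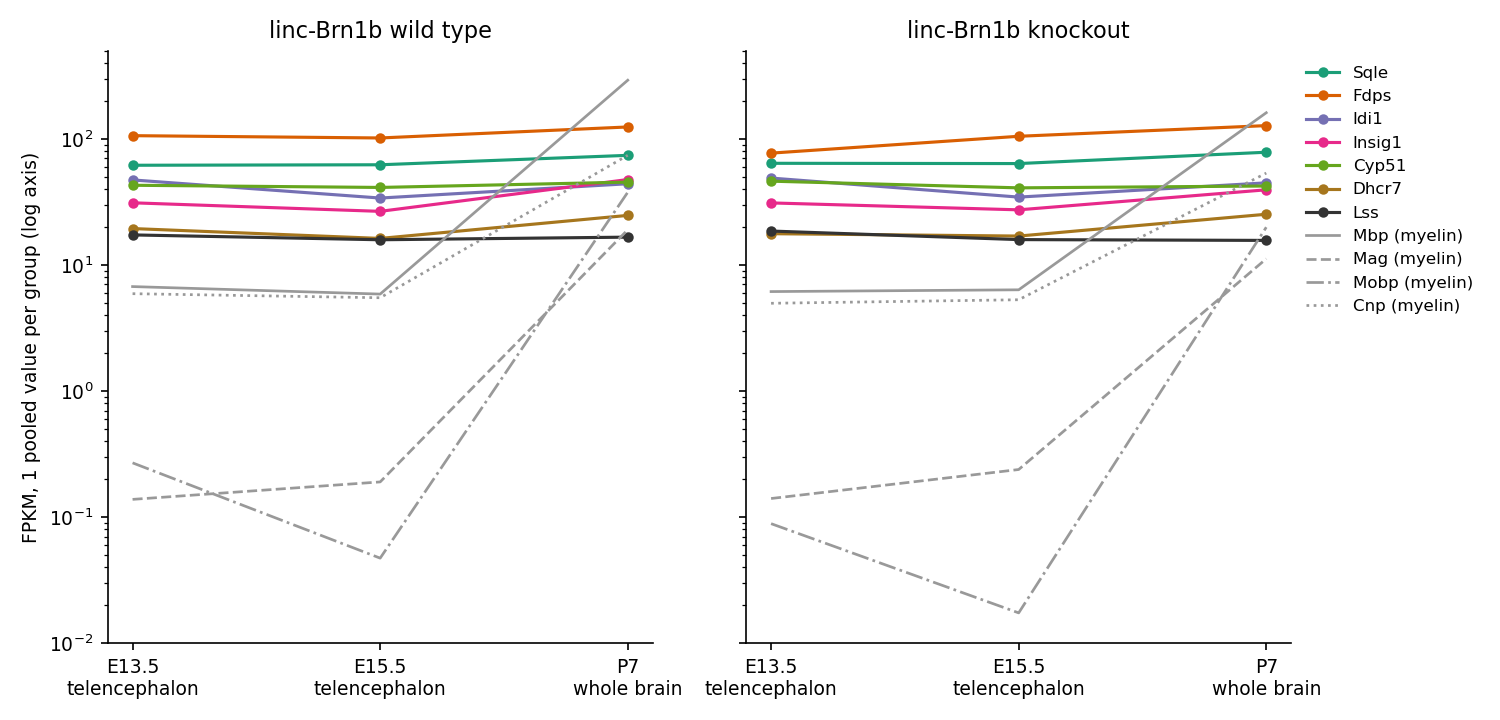
FPKM (log axis) of the 7 cholesterol synthesis genes (coloured) and 4 myelin genes (grey) at E13.5, E15.5 and P7 in linc-Brn1b wild type (left) and knockout (right), 1 pooled value per point. The coloured lines run nearly flat, whereas Mbp runs from 5.87 to 292 FPKM in wild type and from 6.35 to 161 in knockout between E15.5 and P7.

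Beside the members, the rest of the pathway was spread more widely in this step. Of the 13 other enzymes 11 were higher in wild type, 6 of them by 1.5-fold or more, with a median of 0.53, and in knockout 11 were higher, 7 by 1.5-fold or more and 1 lower by that size, with a median of 0.67. Tm7sf2, a sterol reductase acting after Cyp51, went from 10.8 to 22.8 FPKM in wild type (1.01) and from 10.03 to 23.3 in knockout (1.14). Mvk, mevalonate kinase, went from 17.2 to 31.2 and from 17.6 to 30.5 FPKM. Acat2, a thiolase at the start of the pathway, was lower, from 70.8 to 51.1 FPKM (-0.46) and from 70.1 to 45.8 (-0.60), as was Fdft1, squalene synthase, from 54.0 to 42.7 (-0.33) and from 54.6 to 44.8 FPKM (-0.28). Summed levels of the 8 members were 26.4% higher in wild type and 22.8% higher in knockout, and those of the 13 other enzymes 23.1% and 26.4% higher.

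The regulators were spread on both sides of 0. Of the 9 genes of the SREBP pathway, 3 were higher in wild type and 4 in knockout, with medians of -0.13 and -0.10. Srebf2 went from 67.8 to 54.6 FPKM in wild type (-0.31) and from 67.8 to 63.1 in knockout (-0.10). Mbtps1, a protease that frees SREBP, was lower by 1.5-fold or more in both genotypes, from 30.5 to 18.8 and from 31.6 to 20.7 FPKM. Of 11 genes of cholesterol transport and turnover compared, 5 were higher by 1.5-fold or more in each genotype, and 2 in wild type and 1 in knockout were lower by that size (Npc2, a sterol carrier of the lysosome, in both, from 37.0 to 20.5 and from 39.3 to 17.1 FPKM, and Nr1h2, a sterol-sensing nuclear receptor, in wild type, from 23.98 to 11.9 FPKM). Those higher include Apoe, which encodes an apolipoprotein of the brain, from 42.4 to 860.5 FPKM in wild type and from 39.6 to 765 in knockout. They also include Cyp46a1, which turns cholesterol into a form that leaves the brain, from 4.83 to 25.7 and from 4.91 to 35.9 FPKM.

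**Figure D5:**
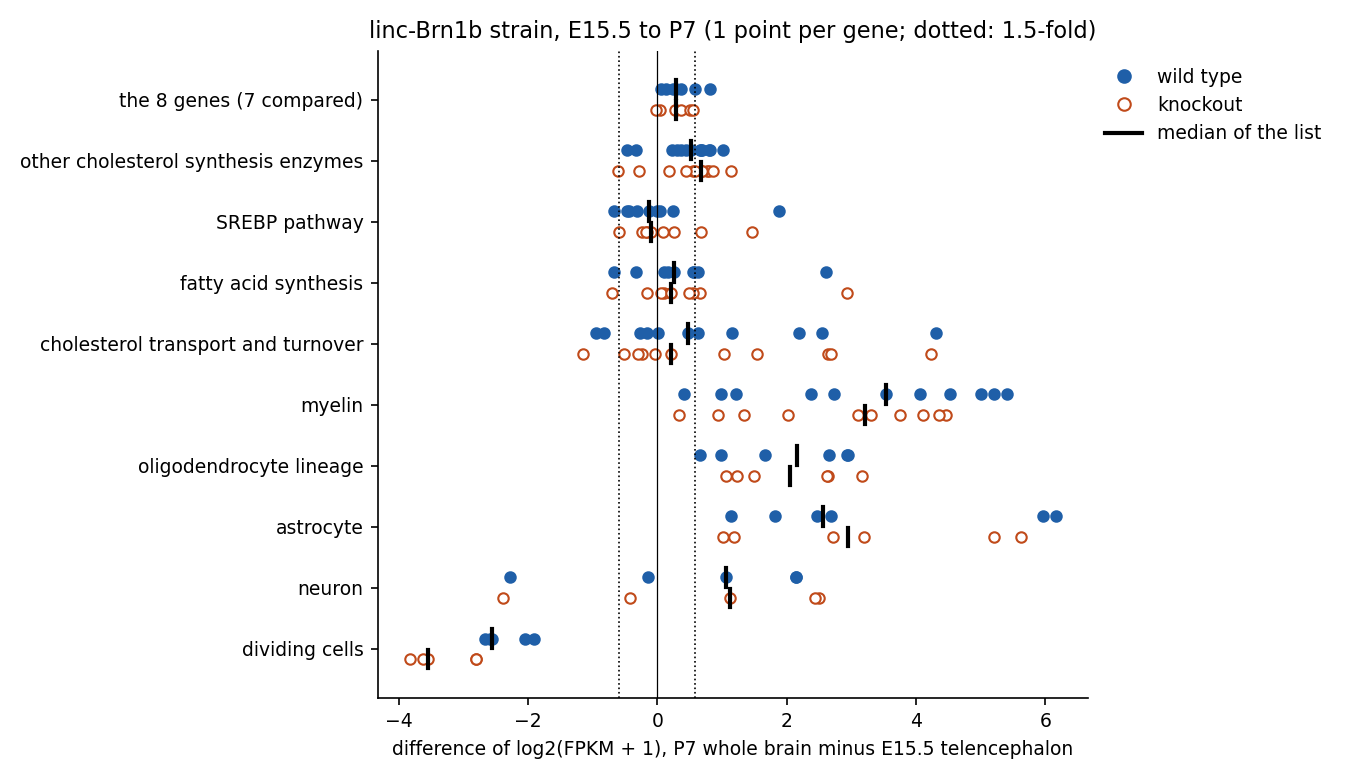
Difference of log2(FPKM + 1), P7 whole brain minus E15.5 telencephalon, for each gene of 10 lists in linc-Brn1b wild type (filled) and knockout (open), with a black bar at the median of each list and dotted lines at 1.5-fold. The 7 cholesterol synthesis genes lie between -0.02 and 0.815, the myelin genes between 0.33 and 5.41, and the markers of dividing cells between -3.82 and -1.91.

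Myelin genes mark the scale of the same step. All 11 myelin genes compared in wild type were higher, 10 of them by 1.5-fold or more, with a median of 3.53, and the 10 compared in knockout had a median of 3.21. Their summed level was 20.8 FPKM at E15.5 and 625 at P7 in wild type, and 21.6 and 363 in knockout. The summed level of the 8 cholesterol synthesis genes was 298 and 377 FPKM in wild type and 304 and 374 in knockout over the same ages.

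Across the 6 linc-Brn1b groups the 7 genes covered a narrow range. The highest value was 1.13 times the lowest for Cyp51, 1.19 for Lss, 1.27 for Sqle, 1.44 for Idi1, 1.56 for Dhcr7, 1.65 for Fdps and 1.79 for Insig1. The lowest Fdps value (77.1 FPKM) and the highest of Idi1, Cyp51 and Lss came from the knockout at E13.5. In that group, differences from wild type went with transcript length. The P7 groups are whole brain, so tissue and age both enter these ratios and the background beside them. The median of these ratios was 1.44, against 2.16 over the 11421 entries with at least 5 FPKM in a group and none at 0, of which 35.7% had a ratio no wider than that of Insig1. Genes with a like course were searched for among the 11469 entries that reached 5 FPKM in a group, leaving out members and entries without a gene symbol. The 10 nearest to the mean course of the 8 were Pomt2, Hars, Coq9, Atpaf1, Uap1, March6, Zdhhc3, Git1, Mid1ip1 and Foxred1. They lay at a root mean square distance of 0.0229 to 0.0461 on the centred log2(FPKM + 1) scale. Among the members, which the search left out, Sqle was nearest to that mean course, at 0.0447. Without Hmgcs1, whose values were all below 1 FPKM, the 10 nearest shared 4 of these (Atpaf1, Mid1ip1, Pomt2 and Foxred1). The others were then Cs, Snx2, Dnajb11, Rpn1, Kat2a and Asah1, and Atpaf1 was nearest, at 0.0175. Atpaf1 stood at 8.08, 7.06 and 9.06 FPKM in wild type and at 7.825, 7.08 and 9.11 in knockout at E13.5, E15.5 and P7. The member closest to the mean course without Hmgcs1 was Sqle, at 0.0702. The 10 were picked for their small distance and the members were not, so the distances of both cannot be compared.

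Overlapping entries limit some of these values. The libraries did not keep the strand, so that reads of a gene and of an antisense entry in the same place cannot be told apart. Antisense entries overlapped Insig1 in all 3 tables (0.410 to 0.703 FPKM), and Lss (1.24 to 1.60) and Dhcr7 (0 in all groups) in the linc-Brn1b table. The antisense entry linc-Rusc1-AS overlapped Fdps in the Peril table (0.996 and 1.03 FPKM) and the Fendrr table (0.2985 and 0.2723 FPKM). In the Peril and Fendrr tables the Fdps entry (chr3:88887381-88905867) also spans Rusc1, which stood at 41.2 and 42.6 FPKM in Peril brain and 6.78 and 6.17 in Fendrr lung, whereas in the linc-Brn1b table Fdps (chr3:88897510-88905867) had no overlapping entry. The other loci (mm9) were Sqle on chr15:59146647-59162748, Idi1 on chr13:8884852-8891642, Insig1 on chr5:28334352-28410381, Cyp51 on chr5:4080674-4104697, Dhcr7 on chr7:151009072-151034315 and Lss on chr10:75994372-76016679 in the Peril and Fendrr tables and chr10:75994372-76024971 in the linc-Brn1b table.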

How the data were processed

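Libraries were prepared with an unstranded poly(A) kit and sequenced as paired ends. TopHat2 (mm9), Cufflinks 2.0.2 and Cuffdiff2 at default options were the tools used by the authors for alignment, assembly and quantification. The values they deposited are FPKM, 1 per group and pooled over its libraries, in 3 tables normalized separately. Their log2 fold changes, test statistics, p-values and q-values were not used. The tables hold 0 columns of values per library, so depth and spread are unknown.

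Here, differences of log2(FPKM + 1) were taken within a table for genes with at least 1 FPKM in at least 1 of both groups, and differences of 1.5-fold or more were counted, beside the same count over all genes (Python 3.11.15, pandas 2.3.3). The comparison was tested on simulated data. Members, gene lists and comparisons were chosen with earlier results of these data known, so the lists give no independent support. Named genes are the members, list genes that were highest in wild type at P7 or passed 1.5-fold, and the 10 nearest courses; other list genes were named after their values were seen. Start-site windows are those of RefSeq (GRCm38.p6), transcript lengths those of GENCODE on mm9, and 1 was added to the tables' start positions. Some genes of these lists enter the counts, medians and sums but are not reported here by name.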

Additional observations from a re-analysis of the deposited data

How the results depend on the processing

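No paired analysis was possible because the tables give 1 value per group and none per library, and for the same reason leaving out a replicate was not possible. Of 225 medians and counts recomputed under 9 alternatives, 203 stayed within 0.1 of the reported median (log2) or 1.5 times the reported count, and 22 moved. Among the 63 medians, 58 stayed. The rest were counts, and all reported counts were 0 except 1 gene higher from E15.5 to P7 in wild type. A count of 0 cannot move at 2-fold, and a minimum of 5 FPKM leaves out none of the 7 genes. The 203 is therefore no measure of robustness. Centring within transcript length classes was added after the data were seen.

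With a ratio of 5 to 4 in place of 1.5-fold, 1 gene was counted as lower in Peril brain, 1 at E13.5, and 1 from E13.5 to E15.5 in each genotype, with 1 higher in knockout, and 3 genes were higher from E15.5 to P7 in each genotype. At 2-fold, 0 were higher from E15.5 to P7 in wild type. In that step 2 genes were higher in wild type with a pseudocount of 0.1 FPKM, with none, after rescaling each group to the same sum, after centring on all genes and after centring within length classes, and in knockout 2 were higher after rescaling, 2 after centring on all genes and 1 after centring within length classes. Rescaling took the median of the members to 0.23 at E13.5 (knockout minus wild type), to -0.35 from E13.5 to E15.5 in knockout, where 1 gene was then lower, and to 0.40 and 0.44 from E15.5 to P7 in wild type and knockout. It also took the median of all genes at E13.5 from 0.058 to 0.239 and that from E13.5 to E15.5 in knockout from -0.0317 to -0.204. Centring within length classes took the median from E13.5 to E15.5 in knockout to -0.0515. The cause of these moves was not tested. Depth is unknown, so no limit of detection can be given.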
